A study of Mus musculus with 30 samples.

Results

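The RNA of 7 genes linked to local hormone inactivation was followed in the mouse colon, out of 46078 genes in the count table. The genes were Sult1e1, Sult1a1, Sult1b1, Sult1d1, Sult1c2, Hsd17b2 and Hsd17b11, and no hormone or enzyme was measured in these libraries. All 7 were found by name and were measured in 30 RNA-seq libraries of colon tissue (distal colon in the study's methods), 1 per animal, with 6 C57BL/6J mice in each of 5 groups. CD F and CD M were female and male mice on a control diet with 10% of its energy as fat, HFD F and HFD M were on a high-fat diet with 60%, and all 4 groups were injected with vehicle. HFD+E2 M were high-fat diet males given estradiol (E2) at 0.5 mg per kg of body weight. Every animal started at 5 to 6 weeks of age, stayed on its diet for 13 weeks and received 9 intraperitoneal injections over the last 3 of them. The females kept their ovaries, no female group received E2 in these libraries, and the colon pieces hold epithelium, muscle and stroma together. In such bulk tissue, fewer cells of a type and less RNA per cell cannot be told apart. Sult1e1 was chosen by its counts in CD females and CD males, so its values against CD F or CD M are described without a test, while the HFD mice are separate animals. Which values, if any, stood behind the choice of the other 6 genes is not known.

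Cytosolic sulfotransferases move a sulfate group from the donor PAPS onto small hydroxyl-bearing molecules, which makes a steroid more soluble and unable to bind its nuclear receptor. The enzyme made from Sult1e1 has a very high affinity for estradiol and estrone and is best known from testis, liver and fat. Sult1a1 encodes a phenol sulfotransferase, Sult1b1 an enzyme known for thyroid hormones, Sult1d1 one that acts on catecholamines, and Sult1c2 a further member of the family. The 17-beta-hydroxysteroid dehydrogenases act at another position of the steroid. Hsd17b2 encodes the oxidative enzyme that turns estradiol into estrone and testosterone into androstenedione, and Hsd17b11 a lipid droplet protein that oxidises androgen metabolites.

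Sult1b1, Sult1d1 and Sult1e1 lie side by side on the minus strand of chromosome 5, at 87513339-87538195, 87554645-87569027 and 87575969-87591594 in GRCm38. Hsd17b11 is on the same chromosome at 103989762-104021919, Sult1a1 on chromosome 7 at 126672865-126676432 and Sult1c2 on chromosome 17 at 53829637-53846339, all on the minus strand. Hsd17b2 is on the plus strand of chromosome 8 at 117701946-117759029. The coding sequence of Sult1e1 (888 bases) was 64.1% identical to that of Sult1d1, 61.9% to Sult1b1, 60.8% to Sult1c2 and 60.3% to Sult1a1, and the longest run of bases it shared exactly with any of these 4 was 19 bases, with Sult1d1. None of the 1192 different 51-base words of the Sult1e1 transcript, the length of 1 read, occurred in a transcript of another gene in GENCODE vM21. This also held for Sult1b1, Sult1d1, Hsd17b2 and Hsd17b11. For Sult1a1, 7.16% of the words were shared, with Gm6939 and Sgf29, and for Sult1c2 0.668%, with the pseudogene Sult1c2-ps2. How alike the family is at its most alike point is shown by the read-length stretch of Sult1e1 with most bases identical in all 5 sulfotransferases, which lies in exon 8 of 8 in each of them. Capitals mark the 25 of 51 coding bases that are the same in all 5, 5' to 3', and the members differ at the rest, so that a read from here carries its own gene's letters.
Sult1e1: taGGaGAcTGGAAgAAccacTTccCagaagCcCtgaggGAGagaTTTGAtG
Sult1d1: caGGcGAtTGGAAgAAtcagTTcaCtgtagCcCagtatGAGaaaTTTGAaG
Sult1b1: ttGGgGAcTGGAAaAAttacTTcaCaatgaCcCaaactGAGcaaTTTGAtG
Sult1a1: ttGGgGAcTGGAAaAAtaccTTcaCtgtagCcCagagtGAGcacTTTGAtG
Sult1c2: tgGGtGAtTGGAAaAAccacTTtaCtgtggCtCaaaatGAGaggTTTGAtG
The Sult1e1 stretch is chr5:87576265-87576315, that of Sult1d1 chr5:87555993-87556043, of Sult1b1 chr5:87515005-87515055, of Sult1a1 chr7:126673199-126673249 and of Sult1c2 chr17:53830058-53830108, all on the minus strand of GRCm38. Against the Sult1e1 letters, 37 of 51 were identical in Sult1d1, 37 in Sult1a1, 36 in Sult1c2 and 35 in Sult1b1.

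The promoter of Sult1e1 is shown because its reads were present in one sex and not in the other. These are the 250 bases before the RefSeq start, chr5:87591612-87591861 on the minus strand of GRCm38.p6, 5' to 3', with the AGGTCA half-site of estrogen and orphan nuclear receptors in capitals, here on the other strand as TGACCT.
Sult1e1 promoter: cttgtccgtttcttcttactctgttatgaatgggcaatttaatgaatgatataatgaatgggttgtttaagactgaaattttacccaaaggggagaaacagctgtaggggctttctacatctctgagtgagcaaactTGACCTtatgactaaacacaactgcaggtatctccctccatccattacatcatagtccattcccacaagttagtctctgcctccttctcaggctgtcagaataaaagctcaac
The match lies at positions -113 to -108 from the start. The half-site was searched on both strands and occurred in 14.0% of the 32536 RefSeq promoter windows of the same length, and in 2 of the 7 windows of the members (2 windows for Sult1b1, Hsd17b2 not included), those of Sult1e1 and Sult1b1. The palindromic estrogen response element, which is GGTCA and its reverse complement TGACC with 3 bases of any kind between them, was in 0 of the 7 windows and in 0.0645% of all windows. The androgen and glucocorticoid receptor half-site AGAACA, which Sult1e1 did not hold in these 250 bases, was in 3 of the 7 windows, of Sult1a1, Sult1b1 and Sult1c2, against 16.0% of all, and the palindrome of AGAACA and its reverse complement TGTTCT with 3 bases of any kind between them, which contains that half-site, in 0 of 7, against 0.00922%. TATAAA, searched on the forward strand, was in 0 of 7 and in 7.55% of all. A match of letters is no bound site, and none of these windows was measured for binding here.

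The libraries held 8667177 to 17243712 counts over all genes (median 11530915.5), so 1 count is close to 0.1 CPM (a read count scaled to a fixed library total). Markers of the labelled tissue were present, since all 8 surface colonocyte and all 7 goblet cell genes had counts in every group. Other tissue was present unevenly. The summed TPM (a level scaled to a fixed library total that also corrects for transcript length) of 9 stratified squamous epithelium genes reached 1240 in HFD F, where 4 of 6 libraries were at 207 or more, and 460 in HFD M, against at most 12 in the other groups. The 8 smooth muscle genes summed to 2520-3910 TPM in CD F and 3970-6630 TPM in CD M, which do not overlap. Fits that carry the score of either list are given below. Because the muscle list separated CD F from CD M, such a fit cannot tell muscle content from sex there.

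Sult1e1 was read in every male colon and in no female colon. In CD F and in HFD F, all 6 libraries of each group had 0 Sult1e1 counts. The CD M libraries had 25, 26, 84, 43, 42 and 15 counts, and the HFD M libraries 73, 16, 22, 15, 52 and 27. The HFD+E2 M libraries had 12, 8, 5, 10, 47 and 16. All 18 males therefore lay above all 12 females, and within the males the E2-treated animals held the lowest counts and, apart from replicate 5, reached no higher than the lower HFD M animals. Over a whole group, 0 counts of 64157661 in CD F allow at most 0.0468 CPM (3 counts), against 3.25 CPM in CD M, which is at least 69.4-fold higher. For HFD F the limit was 0.043 CPM of 69711824 counts, and HFD M, at 2.96 CPM, was at least 68.7-fold higher. These limits cover counting error in the female groups only, and no error is set on the male values.

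**Figure D1:**
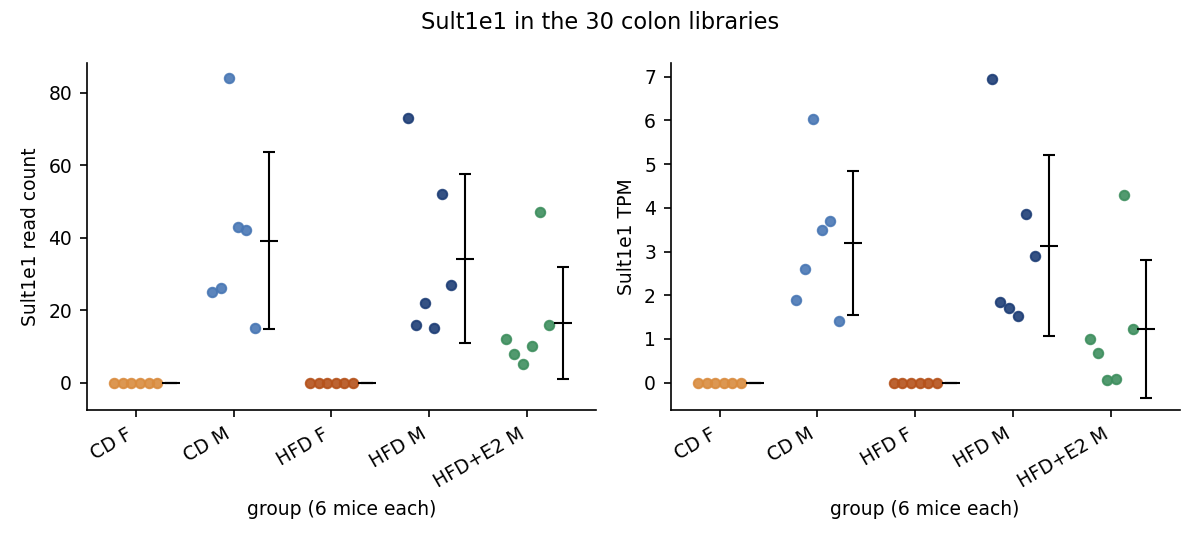
Sult1e1 in each of the 30 libraries by group, as the read count (left panel) and as TPM (right panel). Points are mice, the bar beside them is the mean with its SD (n = 6). The 12 female libraries sit at 0, and the 18 male libraries lie between 5 and 84 counts.

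In TPM the males were as low in level as in counts. CD M had 3.19 ± 1.65 TPM (SD, n = 6), HFD M 3.13 ± 2.07 and HFD+E2 M 1.22 ± 1.58, and Sult1e1 was the lowest of the 7 members in all 30 libraries. The TPM of CD M ran from 1.42 to 6.04 and of HFD M from 1.52 to 6.95. In HFD+E2 M the TPM were 0.994, 0.671, 0.0567, 0.077, 4.30 and 1.22. Replicates 3 and 4, with 5 and 10 counts, stand lower in TPM than in counts (0.289 and 0.754 CPM after TMM scaling, edgeR's scaling of library sizes), so the TPM scale widens the distance between E2-treated and other males. With 5 to 84 counts a library, the counting error of a single male value is large, and 8 of the 18 males had under 20 counts.

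On the high-fat diet the sex comparison was tested, though it was chosen with earlier results of these data known. With HFD F at 0 counts, Sult1e1 passed edgeR's filter on low counts through HFD M alone. Sult1e1 was lower in HFD F than in HFD M with an adjusted p of 0.0021 (edgeR's quasi-likelihood test, Benjamini-Hochberg over 15179 genes), lower in 6 of 6 females than in every male. An exact permutation test, two-sided and on log2 CPM, gave p = 0.00216, the smallest value that 6 against 6 allow. The call stood in all 23 alternatives that could be fitted, with adjusted p in edgeR, DESeq2 or limma from 1.72e-12 to 0.0183. With the score of the squamous list as a covariate the adjusted p in edgeR was 0.00248. Sult1e1 was the only member called of 7 tested, in a comparison that called 0.0988% of all genes and in which 0.211% of all genes were lower in females without overlap. The fitted fold change of a gene at 0 depends on the prior count and is not given.

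Few genes of the table met a strict form of this pattern. A threshold was set after the values were seen, at 0 counts in all 12 females and at least 5 in all 18 males. It was met by 5 genes, 4 on chromosome Y (Uty, Eif2s3y, Gm28588 and Gm18665) and Sult1e1 on chromosome 5. The place of Sult1e1 among them is no result, since its CD counts chose it. The rule drops a gene with any female count, whatever its male level. The Y-linked genes Ddx3y and Kdm5d did not meet it, so the number of genes depends on the rule. The median male count of Sult1e1 was 23.5, against 953.5 for Uty and 931 for Eif2s3y. By likeness of log2 CPM over the 30 libraries, among 14905 genes with a mean of at least 1 CPM, Sult1e1 was nearest to the complement gene C7 (Pearson r = 0.93), then to the Y-linked genes Eif2s3y (r = 0.93), Uty (r = 0.93), Ddx3y (r = 0.93) and Kdm5d (r = 0.92). With the group means taken out, r was 0.22 for C7, 0.52 for Eif2s3y, 0.25 for Uty, 0.10 for Ddx3y and 0.19 for Kdm5d, so the likeness rests mostly on the distance between males and females. The libraries share diet and sex, and no p is given.

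Cell types known to carry this enzyme were looked at beside it. The 8 male accessory gland and epididymis genes summed to 0 TPM in all 6 CD F libraries and to 0 to 0.499 TPM in HFD F (median 0.0429). In CD M they summed to 0 to 1.25 TPM (median 0.679), and in HFD M to 0.183 to 15 (median 0.471), where replicate 2 held the 15 and had 16 Sult1e1 counts. In HFD+E2 M they summed to 0 to 0.397 TPM (median 0.136). The medians of this list, like those of Sult1e1, were thus higher in males than in females and lower in E2-treated than in vehicle males, though CD M replicate 6, with 0 TPM of the list, had 15 Sult1e1 counts. The medians rest on few reads: 1 of the 8 genes had any count in each of CD F, HFD F and HFD+E2 M, against 7 in CD M and 6 in HFD M. The score of this list uses only the 3 of its 8 genes with a mean over 0.1 CPM. That score correlated with Sult1e1 over the 18 male libraries at -0.02, and at -0.25 with group means removed. The part of this list in the Sult1e1 values was not tested. The epididymal gene Defb30 was at 0 counts in all 30 libraries. The 6 Leydig cell genes, of which Hsd17b3 was at 0 everywhere, summed to 0.157-0.91 TPM in CD M and 0.364-1.15 TPM in CD F, without a male excess. Adipocyte genes summed to 11.2-30.5 TPM in CD F and 13.2-30.9 TPM in CD M, to 13.6-40.5 TPM in HFD F and 12.5-26.5 TPM in HFD M, overlapping between the sexes. Over the 18 male libraries, the correlation of Sult1e1 with the 13 marker scores, group means removed, ran from -0.32 (squamous) to 0.28 (surface colonocyte and endothelium). Only genes with a mean over 0.1 CPM entered a score, which were 1 of 6 Leydig cell and 3 of 6 mesothelium genes.

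In males, the Sult1e1 counts of the high-fat diet and control diet groups overlapped over most of their range. HFD M against CD M gave a log2 fold change of -0.10 (SE 0.38), given as a description because the CD M counts had a part in choosing the gene. None of the other 6 members was called, and 0% of all 14991 genes tested were, with 6.03% at an unadjusted p under 0.05. In females, HFD F against CD F, Sult1e1 was at 0 in both groups and has no fold change. The other 6 members there had an adjusted p of 0.999 each in edgeR, where 0.0199% of genes were called. A sex by diet interaction could be fitted for those 6 and gave adjusted p from 0.757 to 0.961 in edgeR, with 0% of 15800 genes called and 6.75% at an unadjusted p under 0.05.

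With E2, Sult1e1 had a lower mean in high-fat diet males, but this did not pass the test. HFD+E2 M against HFD M gave a log2 fold change of -1.05 (SE 0.52, 95% interval -2.16 to 0.07, adjusted p = 0.506 in edgeR). The exact two-sided permutation test of the same 12 libraries gave p = 0.0671. The value turned on replicate 5 of HFD+E2 M, with 47 counts. Without it the log2 fold change was -1.73 (SE 0.45, adjusted p = 0.443 in edgeR), and on log2(TPM + 0.1) with all libraries it was -1.96, adjusted p in limma 0.597. The adjusted p lay between 0.22 and 0.858 over 23 alternatives. Against CD M, as a description for the same reason as above, the log2 fold change was -1.15 (SE 0.51), and -1.83 without the same replicate. These comparisons share the E2-treated libraries.

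E2-treated males still stood above vehicle females for Sult1e1. The group total of 98 counts, of which replicate 5 held 47, came to 1.36 CPM. This is at least 31.7-fold higher than the limit for HFD F, with no error set on the male value. All 6 E2-treated males had counts and no HFD female did, with an exact two-sided permutation p of 0.00216, the smallest possible. In this pair 0.25% of all genes were higher without overlap. The gene failed edgeR's filter on low counts in this comparison. Without the filter its adjusted p was 0.0143 in edgeR, in the fit over all 30 libraries 0.00345, and in DESeq2 4.23e-07, whereas limma on log2(TPM + 0.1) gave 0.458 and on log2(TPM + 1) 0.828.

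The 4 other sulfotransferases among the members all stood above Sult1e1 in level, and none passed the test for sex, diet or E2. Levels of sulfotransferases outside the 7 members were not compared. Over the 30 libraries the mean level was 130 ± 33.9 TPM (SD) for Sult1a1, 103 ± 31.8 for Sult1b1, 55.1 TPM for Sult1d1 and 32.3 ± 7.43 for Sult1c2. Sult1a1 had more TPM than Sult1b1 in 20 of 30 libraries and Sult1d1 in turn more than Sult1c2 in 28, while both leading genes exceeded Sult1d1 and Sult1c2 in 30 of 30. Their log2 fold changes in the 32 tests over 8 comparisons ran from -0.36 to 0.33, with adjusted p from 0.483 to 0.999 in edgeR and 0 of 32 at an unadjusted p under 0.05. Of all genes, 0% to 2.92% were called in these comparisons, so 0 of 4 members called says nothing particular about them. The 95% intervals reached at most to -1.0 (Sult1d1, sex by diet interaction) and 0.80 (Sult1a1, HFD F against HFD M). Others were narrower, such as -0.19 to 0.20 for Sult1b1 in CD F against CD M. Changes within the interval of a gene and comparison are not excluded.

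**Figure D2:**
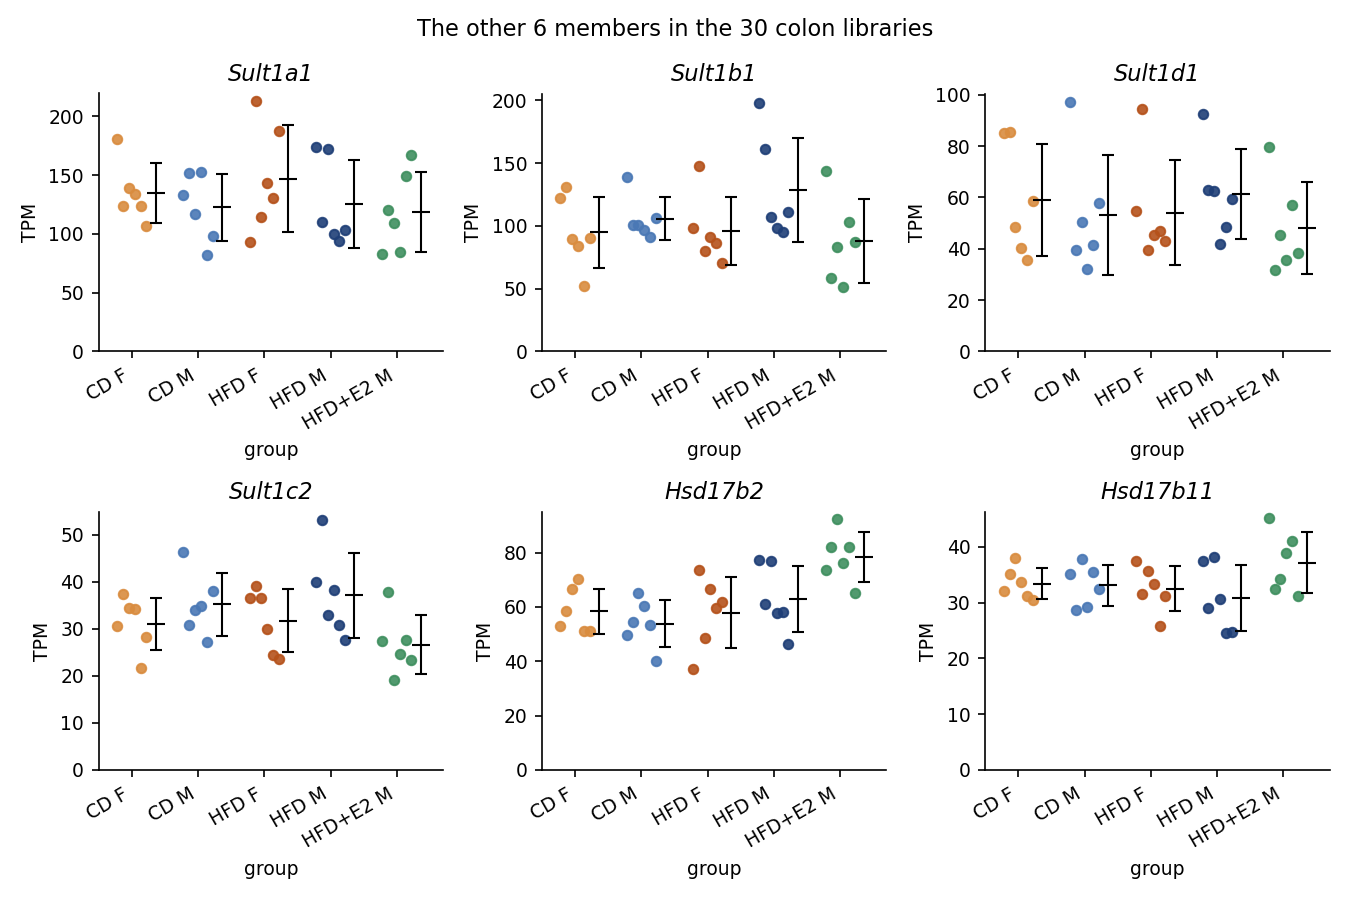
TPM of the other 6 members in each of the 30 libraries by group. Points are mice and the bar beside them is the mean with its SD (n = 6). The 4 sulfotransferases overlap in all groups, and Hsd17b2 has its highest mean, 78.5 TPM, in HFD+E2 M.

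Sult1a1, the phenol sulfotransferase, ran from 107 to 181 TPM in CD F (median 129) and from 82.0 to 153 in CD M (median 125). In HFD F it ran from 92.9 to 213 (median 137), in HFD M from 94.0 to 174 (median 107) and in HFD+E2 M from 83.0 to 167 (median 115). All 5 groups overlap. The sex differences were 0.25 (SE 0.15) in log2 on the control diet and 0.33 (SE 0.22) on the high-fat diet, females minus males, with adjusted p of 0.483 and 0.872 in edgeR. In likeness it was nearest to Nxpe2 (r = 0.82), the glycosyltransferase gene B4galnt2 (r = 0.82) and the goblet cell gene Clca1 (r = 0.79). With group means removed, its highest correlations with the 13 marker scores were with endothelium (0.62), goblet cell (0.55) and surface colonocyte (0.42), and the lowest with squamous epithelium (-0.51).

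Sult1b1 ran from 52.2 to 131 TPM in CD F, 90.7 to 139 in CD M, 70.5 to 148 in HFD F, 95 to 198 in HFD M and 51 to 144 in HFD+E2 M. HFD M had the highest mean, 128 ± 41.5 TPM, and HFD+E2 M the lowest, 87.6 ± 33.5, a log2 fold change of -0.32 (SE 0.16, adjusted p = 0.506 in edgeR). Its neighbour on the chromosome, Sult1d1, ran from 35.6 to 85.5 TPM in CD F, 32.2 to 97.1 in CD M, 39.5 to 94.6 in HFD F, 42.0 to 92.4 in HFD M and 31.6 to 79.6 in HFD+E2 M. Both genes varied more between mice of a group than between groups. They varied together, with r = 0.78 over the 30 libraries and 0.81 with group means removed, the highest of the 21 member pairs. Sult1e1, which lies beside them, had r of 0.12 and 0.06 with them once group means were removed.

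Sult1b1 and Sult1d1 both varied with the marker scores of several cell types. With group means removed, their correlation with the smooth muscle score was -0.75 and -0.73, and with the crypt base score -0.54 and -0.43. With the surface colonocyte score it was 0.62 and 0.52, and with the goblet cell score 0.61 and 0.50. Libraries with more muscle RNA thus had less of both, and the part of tissue make-up in this was not tested. The genes most like Sult1b1 were Sh3bgrl2 (r = 0.94), Golph3 (r = 0.94) and Pik3c2a (r = 0.93), and those most like Sult1d1 the tight junction gene Ocln (r = 0.92), Tmem59 (r = 0.91) and Ghitm (r = 0.91). All points share the library and its depth. In the CD sex comparison, where the muscle list differed, the log2 fold change of Sult1d1 was 0.24 (adjusted p = 0.678 in edgeR) and -0.51 with the muscle score as a covariate (adjusted p = 0.145), and that of Sult1b1 0.01 and -0.23 (adjusted p = 0.305).

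**Figure D3:**
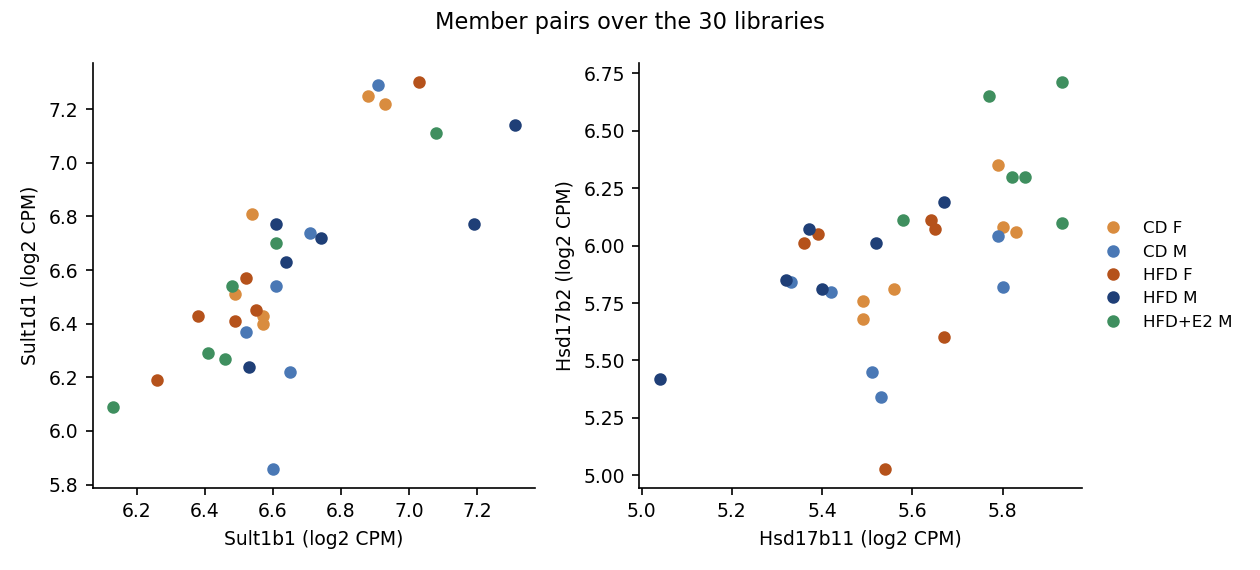
Log2 CPM of Sult1d1 against Sult1b1 (left) and of Hsd17b2 against Hsd17b11 (right), each point a library coloured by group. Sult1b1 and Sult1d1 vary together over the 30 libraries (r = 0.78) with the groups mixed, and in the right panel the HFD+E2 M libraries lie towards the upper right (r = 0.56).

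Sult1c2 ran from 21.7 to 37.3 TPM in CD F, 27.1 to 46.4 in CD M, 23.5 to 39.0 in HFD F, 27.6 to 53.1 in HFD M and 19.1 to 37.7 in HFD+E2 M. Its lowest group mean was that of HFD+E2 M, 26.6 ± 6.23 TPM, and its log2 fold change against HFD M was -0.29 (SE 0.19, adjusted p = 0.567 in edgeR). It varied largely apart from its relatives, with r of 0.16 to Sult1b1 and 0.07 to Sult1d1 with group means removed. The gene most like it was the purine synthesis gene Paics (r = 0.80), followed by Hdac3 and Cdc25c (r = 0.69 each).

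The 2 dehydrogenase genes had their highest means in the E2-treated males. Hsd17b2 had CPM of 68.4, 105, 100, 78.7, 78.7 and 68.7 in HFD+E2 M, against 64.4, 57.3, 72.7, 56.0, 67.0 and 42.7 in HFD M and 43.6, 55.7, 65.7, 57.2, 56.2 and 40.4 in CD M. In CPM, all 6 E2-treated males were thus above all 6 CD males, and only HFD M replicate 3 reached into their range. In TPM, CD M replicate 3 (65.3) stood just above HFD+E2 M replicate 6 (65.1). HFD M replicates 1 (77.2 TPM) and 3 (76.8 TPM) also reached into the range of the E2-treated males. The 2 female groups ran from 51.1 to 81.2 CPM in CD F and from 32.5 to 69.0 in HFD F, and both overlapped with the E2-treated males. In TPM the means were 58.5 ± 8.28 in CD F, 53.9 ± 8.71 in CD M, 57.8 ± 13.1 in HFD F, 62.9 ± 12 in HFD M and 78.5 ± 9.15 in HFD+E2 M (SD, n = 6 each).

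Against CD M, Hsd17b2 in HFD+E2 M came to a log2 fold change of 0.66 (SE 0.14, 95% interval 0.37 to 0.94) with an adjusted p of 0.052 in edgeR, just over the 0.05 threshold. The exact two-sided permutation p was 0.00216, the smallest possible, and 0.576% of all genes were higher without overlap in this pair. None of the 6 members tested here was called, in a comparison that called 0.212% of 15109 genes. Sult1e1 is left out of this count only because its values against CD M are described without a test. The side of the threshold depended on the setting: 9 of 24 alternatives passed, among them DESeq2 with an adjusted p of 0.00164, and the range was 0.00164 to 0.428. The log2 fold change stayed between 0.54 and 0.74. This contrast holds diet and treatment together.

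Against the HFD M vehicle group, where E2 is what differs, Hsd17b2 gave a log2 fold change of 0.47 (SE 0.14, p = 0.00321, exact permutation p = 0.0108), with an adjusted p of 0.454 in edgeR. Hsd17b11 gave 0.42 (SE 0.11, p = 0.00146, exact permutation p = 0.00433), with an adjusted p of 0.45 in edgeR. Neither passed over all genes, where 0.00666% of 15010 genes (1 gene) did, and none of the 24 alternatives of either made it pass. By the looser rule of an unadjusted p under 0.05 with a log2 fold change over 0.4, 2 of 7 members were higher and 0 lower, against 2.63% of all genes higher by this rule. Against HFD F, the log2 fold changes of the E2-treated males were 0.52 for Hsd17b2 (adjusted p = 0.383 in edgeR) and 0.27 for Hsd17b11 (adjusted p = 0.464), and 0.171% of 15182 genes were called. The E2-treated libraries are common to these comparisons, so they are not separate evidence.

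Hsd17b11 had CPM of 60.6, 60.8, 54.3, 56.3, 57.6 and 47.5 in HFD+E2 M, against 45.7, 39.7, 50.7, 42.1, 41.2 and 32.7 in HFD M. In CPM, only 1 E2-treated male, replicate 6, lay within the range of the HFD M vehicle males. In TPM, replicates 2, 3 and 6, at 32.5, 34.3 and 31.1, lay within the HFD M range of 24.6 to 38.1. CD F ran from 44.7 to 56.7 CPM, CD M from 40.1 to 55.6 and HFD F from 40.9 to 50.8. In TPM its group means lay between 30.8 ± 5.93 in HFD M and 37.2 ± 5.47 in HFD+E2 M, the narrowest range of the 7 members in proportion to the level. Against CD M the log2 fold change of the E2-treated males was 0.25 (SE 0.10, adjusted p = 0.36 in edgeR, exact permutation p = 0.0216). Hsd17b2 was above Hsd17b11 in TPM in 29 of 30 libraries, and the 2 genes correlated at r = 0.56, or 0.42 with group means removed. The genes most like Hsd17b2 were Tmem127 (r = 0.86), the cathepsin gene Ctss (r = 0.83) and Gm608 (r = 0.83), and those most like Hsd17b11 were Appl2 (r = 0.75), Spop (r = 0.73) and Eif5b (r = 0.71).

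Between the sexes on the control diet, Hsd17b2 gave a log2 fold change of 0.24 (SE 0.14, adjusted p = 0.451 in edgeR) and Hsd17b11 0.09 (SE 0.10, adjusted p = 0.757). With the smooth muscle score in the fit, the value of Hsd17b2 was 0.75 with an adjusted p of 0.0126. Muscle genes were lower in CD females without overlap, so this fit cannot tell muscle content from sex. How much of either value belongs to the muscle content was not tested. None of the 6 members tested here was called in the main comparison, where 2.92% of 14922 genes were.

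**Figure D4:**
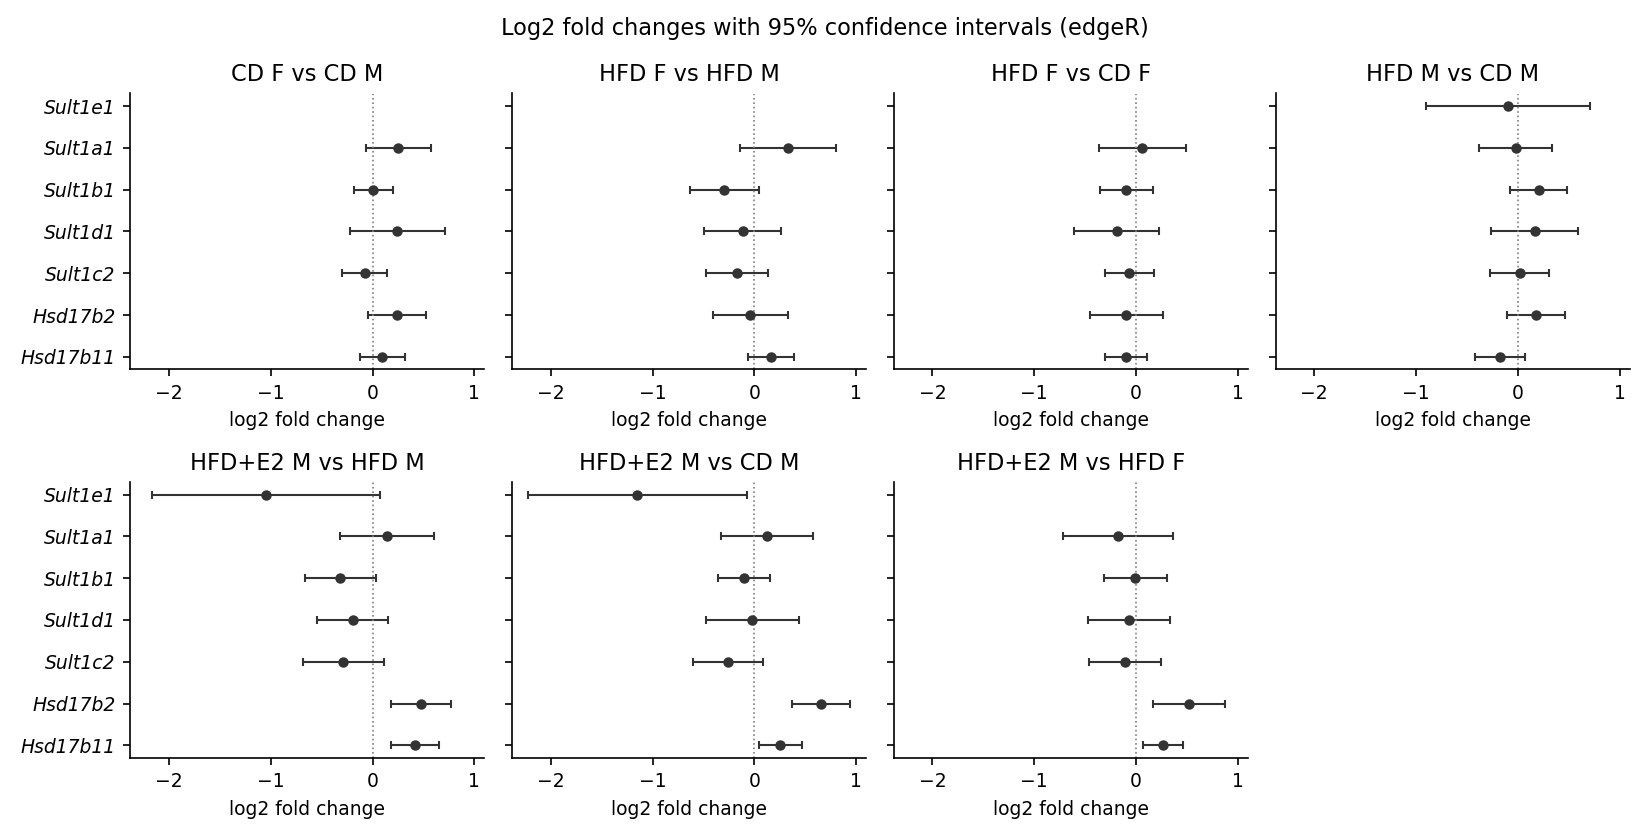
Log2 fold changes (first group minus second) of the 7 members in 7 comparisons with 95% confidence intervals from edgeR. Sult1e1 is left out where a group is at 0 counts, and its intervals against CD M are a description. No interval shown belongs to a gene past an adjusted p of 0.05, and Hsd17b2 and Hsd17b11 lie above 0 in all 3 comparisons of HFD+E2 M.

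The wider pathway was read from a further list. Of 98 further genes listed in 5 groups (other sulfotransferases and PAPS synthesis, cleavage and transport of steroid sulfates, other 17-beta-hydroxysteroid dehydrogenases, steroid synthesis and reduction, and estrogen hydroxylation and glucuronidation), 52 to 54 passed the filter on low counts, depending on the comparison. Between the sexes on the control diet, 2 were higher and 1 lower in females. Hsd3b3, a 3-beta-hydroxysteroid dehydrogenase, was higher by 0.63 in log2 (SE 0.13, adjusted p = 0.0127 in edgeR), at 11.6 ± 1.84 TPM in CD F and 7.82 ± 2.53 in CD M. On the high-fat diet its means stood the other way round, 10.5 ± 3.11 in HFD F and 14.6 ± 5.86 in HFD M (sex by diet interaction, adjusted p = 0.41 in edgeR). Ugt2b34, a UDP-glucuronosyltransferase, was higher by 0.40 (SE 0.10, adjusted p = 0.0404), at 101 ± 21.5 TPM against 80.3 ± 10.3, and shares a family of near copies whose reads may be split. It too had the lower mean in females on the high-fat diet, 92.4 ± 28.9 against 110 ± 38.7 (interaction, adjusted p = 0.63). Slco3a1, an organic anion transporter, fell by 0.60 (SE 0.12, adjusted p = 0.0129), at 2.85 ± 1.29 TPM against 4.43 ± 0.997. These 3 of 52 stand beside 2.92% of all genes called. The smooth muscle list separated CD F from CD M, as given above, and its part in these 3 values was not tested.

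Hsd3b3 was also higher in HFD+E2 M than in CD M, by 0.79 in log2 (SE 0.14, adjusted p = 0.0157 in edgeR), at 12.8 ± 1.29 TPM, and was the only 1 of 52 listed genes called there. Vehicle-treated HFD M were at 14.6 ± 5.86 TPM, so the mean of the E2-treated males was not above that of vehicle males on the same diet. HFD M against CD M gave 0.87 (SE 0.20, adjusted p = 0.356). In the 6 other comparisons, the interaction included, edgeR called 0 of the listed genes. By the looser rule, E2 against vehicle in high-fat diet males had 1 listed gene higher and 8 lower of 52, against 2.63% of all genes higher and 3.24% lower. The 8 lower were Hsd17b7, Hsd17b12, Srd5a1, Akr1c14, Akr1c19, Cyp7b1, Ugt1a1 and Ugt2b35, named after their values were seen, with log2 fold changes from -0.64 to -0.43 and adjusted p from 0.455 to 0.488 in edgeR. Ugt1a1 shares exons with other Ugt1a genes and Ugt2b35 is of the family of Ugt2b34, so their reads may be split too. None of the 8 was checked for reads shared with other genes. HFD M against CD M had 5 listed genes higher and 1 lower by that rule, against 1.25% of all genes higher and 1.64% lower. Of the 5, Hsd3b3, Srd5a2, Akr1c14, Akr1c19 and Ugt2b34, Akr1c14 and Akr1c19 were also among the 8 lower with E2, and the comparisons share the HFD M libraries. Of the 7 other sulfotransferase and PAPS genes tested, 0 passed either rule in any of the 8 comparisons. Their median log2 fold change with E2 in high-fat diet males was 0.08, against 0.00 over all genes, and that of the 7 other 17-beta-hydroxysteroid dehydrogenases tested was -0.19, with 2 of the latter lower by the looser rule.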

How the data were processed

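The authors sequenced ribosomal RNA-depleted colon RNA (paired reads of 51 bases). Per the labels and the study's methods, reads were trimmed with Trim Galore, mapped to mm10 (GRCm38) with STAR, and counted with featureCounts. The deposited counts are raw, and the deposited TPM are StringTie's, which estimates them apart from the counts. Versions and strand settings of the counter are not given in the sources used here. Counts were tested with edgeR 4.0.16 (filterByExpr, TMM, robust quasi-likelihood F-test) over all genes of the 12 libraries compared, with Benjamini-Hochberg adjustment. DESeq2 1.42.0 and limma 3.58.1 on log2 TPM (pseudocounts 0.1 and 1) were alternatives, beside other filters, scalings, covariates, a replicate block and leaving out each library. CPM of single libraries use TMM scaling and a prior count of 2 on the log scale, and the group CPM beside the Sult1e1 limits are summed counts over raw library totals. The edgeR fit was tested on simulated data before use. The members, lists and comparisons were chosen with earlier results of these data known. All members are named, listed genes past an adjusted p of 0.05 with a mean of at least 1 TPM (at most 3 per direction, list and comparison), and the 5 (Sult1e1) or 3 genes most like a member. Sequences are from RefSeq (GRCm38.p6) and GENCODE vM21 (GRCm38), and coding sequences were aligned with Biopython 1.88. Of the 98 listed genes, Sts is not analysed here. The mice are separate animals, and depth per library is given above.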

Additional observations from a re-analysis of the deposited data

Results flagged for a closer look

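Of 33 pairs of a member and a group of 6 libraries, 2 held a library whose gap to the next was more than 0.625 of the range of the group, in log2 CPM. Chance flags about 1 in 20 groups. Sult1c2 in HFD+E2 M replicate 2 was at 6.12, the highest of its group, with 694 counts, where the median of its group was 461 counts. Sult1d1 in HFD F replicate 2 was at 7.30, also the highest, with 1899 counts against 837 to 1118. In that library Sult1b1 too had the highest count of its group, 1574.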

How the results depend on the processing

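For the 52 log2 fold changes of single members, 575 of the alternative values other than leaving out a library kept direction and side of the adjusted threshold, 39 changed sign and 7 moved past the threshold. No value that changed sign was past the threshold before or after. With no filter, the log2 fold change changed sign to -0.003 for Sult1b1 in CD F vs CD M. With the smooth muscle score, the log2 fold change changed sign to -0.23 for Sult1b1 in CD F vs CD M, -0.51 for Sult1d1 in CD F vs CD M, 0.049 for Sult1a1 in HFD M vs CD M, -0.053 for Sult1c2 in HFD M vs CD M, -0.054 for Sult1d1 in HFD M vs CD M, 0.038 for Sult1a1 in HFD+E2 M vs HFD F, 0.21 for Sult1b1 in HFD+E2 M vs HFD F, 0.20 for Sult1d1 in HFD+E2 M vs HFD F, 0.008 for Sult1d1 in sex by diet interaction. In limma on log2(TPM + 0.1), the log2 fold change changed sign to -0.20 for Sult1b1 in CD F vs CD M, 0.032 for Sult1b1 in HFD F vs CD F, 0.022 for Sult1c2 in HFD F vs CD F, 0.025 for Sult1a1 in HFD M vs CD M, -0.081 for Sult1a1 in HFD+E2 M vs HFD M, -0.057 for Sult1a1 in HFD+E2 M vs CD M. On log2(TPM + 1), the log2 fold change changed sign to -0.20 for Sult1b1 in CD F vs CD M, 0.031 for Sult1b1 in HFD F vs CD F, 0.022 for Sult1c2 in HFD F vs CD F, 0.025 for Sult1a1 in HFD M vs CD M, -0.081 for Sult1a1 in HFD+E2 M vs HFD M, -0.056 for Sult1a1 in HFD+E2 M vs CD M. On log2(TPM + 0.1) with a mean of at least 1 TPM, the log2 fold change changed sign to -0.20 for Sult1b1 in CD F vs CD M, 0.032 for Sult1b1 in HFD F vs CD F, 0.022 for Sult1c2 in HFD F vs CD F, 0.025 for Sult1a1 in HFD M vs CD M, -0.081 for Sult1a1 in HFD+E2 M vs HFD M, -0.057 for Sult1a1 in HFD+E2 M vs CD M. With the squamous score, the log2 fold change changed sign to 0.038 for Sult1d1 in HFD F vs HFD M, 0.081 for Hsd17b2 in HFD F vs HFD M, 0.13 for Sult1b1 in HFD F vs CD F, 0.082 for Sult1d1 in HFD F vs CD F, 0.19 for Hsd17b2 in HFD F vs CD F, 0.014 for Sult1e1 in HFD M vs CD M, 0.070 for Sult1a1 in HFD M vs CD M, -0.12 for Sult1c2 in HFD M vs CD M. With the adipocyte score, the log2 fold change changed sign to 0.069 for Hsd17b2 in HFD F vs HFD M, 0.047 for Sult1e1 in HFD M vs CD M. With the replicate block, the log2 fold change changed sign to 0.008 for Sult1d1 in HFD+E2 M vs CD M. The number of members called in HFD+E2 M vs CD M was 1 (Hsd17b2) in place of 0 in DESeq2, with DESeq2's size factors, with no filter, with at least 10 counts in every library, with the replicate block and with the smooth muscle score. In HFD+E2 M vs HFD F it was 1 (Sult1e1) in place of 0 in DESeq2, with no filter and in the fit over all 30 libraries. In CD F vs CD M it was 1 (Hsd17b2) with the smooth muscle score, and in HFD F vs HFD M 0 in place of 1 with at least 10 counts in every library, which removes Sult1e1 before the test. Leaving out 1 library at a time gave 0 to 1 members called in HFD+E2 M vs CD M, 1 without CD M replicate 3, HFD+E2 M replicate 1 or HFD+E2 M replicate 6, and the main number in each of the other 7 comparisons. Log2 fold changes that changed sign when a library was left out ranged from -0.057 to 0.051 for Sult1b1 in CD F vs CD M, from -0.12 to 0.085 for Hsd17b2 in HFD F vs HFD M, from -0.071 to 0.19 for Sult1a1 in HFD F vs CD F, from -0.16 to 0.025 for Hsd17b2 in HFD F vs CD F, from -0.39 to 0.18 for Sult1e1 in HFD M vs CD M, from -0.15 to 0.066 for Sult1a1 in HFD M vs CD M, from -0.10 to 0.095 for Sult1c2 in HFD M vs CD M, from -0.16 to 0.18 for Sult1d1 in HFD+E2 M vs CD M, from -0.14 to 0.10 for Sult1b1 in HFD+E2 M vs HFD F, from -0.21 to 0.12 for Sult1d1 in HFD+E2 M vs HFD F, from -0.049 to 0.21 for Sult1a1 in sex by diet interaction, from -0.17 to 0.028 for Sult1c2 in sex by diet interaction. In no comparison did all 6 pairs of animals with the same replicate number correlate over 0.1 in their deviations. Correlations lay between -0.27 and 0.50 over all comparisons, and between 0.020 and 0.32 in HFD F vs CD F, where all were above 0. Never was every animal nearest to its own number, and most were not. Some were, such as replicate 1 in CD F vs CD M (0.504) and in HFD+E2 M vs CD M (0.482). This check looks for full pairing only, and whether some libraries of the same number share a batch was not tested. With the replicate block, Hsd17b2 in HFD+E2 M vs CD M had an adjusted p of 0.00633 in edgeR and Sult1e1 in HFD+E2 M vs HFD M 0.22, and the block changed no other number of calls. The interaction has no value for Sult1e1, and limma on TPM and DESeq2 gave none where a gene failed their filters. Depth limits Sult1e1 most, with 5 to 84 counts in a male library.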
